A study of Mus musculus with 12 samples.

Results

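Zfp genes of the mouse carry a number in place of a functional name and code for proteins built on C2H2 zinc fingers, small loops held by a zinc ion that read DNA, and in some members RNA. Genes were taken as members when the symbol was Zfp followed by a number from 1 to 500 and when at least 3 of the 12 libraries held 10 or more counts. Zfp36, which codes for an RNA-binding CCCH protein, was left out by the same rule. Of 166 such genes in the tables, 150 met the count minimum and 16 did not, among 52553 features in all. Counts chose the members, so their presence in these cells is not a finding. Of the 150, 130 held 10 counts in every library, and 0 reached the minimum through the libraries of 1 group only.

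The cells were CD115+ monocytes, purified with magnetic beads from the spleen or the peripheral blood of C57BL/6 male mice, whose age is not given in the sources used here. There were 4 groups of 3 libraries, and each library pooled the cells of 5 mice: intact spleen, intact blood, and spleen and blood collected 24 h after 70% of the liver had been resected. All animals of these groups kept their spleen. The control mice are labelled intact rather than sham-operated, so resection and the surgery around it cannot be told apart. Nothing states how the pools were formed, so p-values measure the spread between these pools.

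Many of these genes belong to the KRAB zinc finger family, the largest family of transcription factors in mammals. A KRAB box at the start of the protein binds the corepressor Trim28, which brings histone methyltransferase and heterochromatin proteins to the sites that the fingers read, often in transposable elements, and some of these proteins keep imprints. Other members lack the box, and among them are activators, repressors, splicing factors and ubiquitin and SUMO ligases.

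Library totals ran from 36990033 to 46401368 estimated counts. Haemoglobin transcripts made up 13.2% to 34.2% of blood libraries and 0.0814% to 3.47% of spleen libraries, so shares below are of the counts left without them. The monocyte list was present in every group, and Csf1r, which codes for CD115, averaged 453 CPM (counts per 1000000 gene counts, scaled with TMM factors) in intact spleen, 898 after resection, 346 in intact blood and 666 after resection. Other genes of the list moved either way. Cx3cr1 averaged 18.7 CPM in intact spleen and 3.995 after resection, and 41.0 and 8.90 in blood. Itgam averaged 190 and 626 CPM in spleen, and 600 and 3599 in blood. Lyz2 averaged 1615 and 955 CPM in spleen, and 4578 and 7646 in blood. RNA of other cells was present as well: the summed T-cell list ran from 1705 to 4820 CPM in intact blood and from 389.8 to 731 after resection, and the neutrophil list from 143.8 to 526 and from 3862 to 19950. In intact spleen the B-cell list ran from 6029 to 6858 CPM, above the monocyte list at 3341 to 3778 CPM. After resection these ran from 1523 to 5154 and from 4148 to 4817 CPM. The spleen neutrophil list ran from 1333 to 2428 CPM in intact mice and from 5604 to 15160 after resection. The hepatocyte list held at most 1.75 CPM in any library. Intact blood library 3 stood apart, with 2216 CPM of proliferation genes against 248 and 275 in its fellows. Some blood results are also given without it, while the splits by motif, by place on the chromosome and by counts are not. Fewer cells of a type and less RNA per cell cannot be told apart in such bulk libraries.

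After resection the Zfp-numbered genes took a smaller share of the transcripts in both tissues. In intact spleen they held 0.504%, 0.487% and 0.454% of the non-haemoglobin counts, and after resection 0.369%, 0.328% and 0.327%. In intact blood they held 0.428%, 0.440% and 0.507%, and after resection 0.285%, 0.243% and 0.266%. The 3 libraries of each resected group lay below the 3 of its intact group. The mean share was 0.482% ± 0.026 and 0.341% ± 0.024 (SD, n = 3) in spleen and 0.458% ± 0.042 and 0.265% ± 0.021 (SD, n = 3) in blood, ratios of 0.708 and 0.578.

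**Figure D1:**
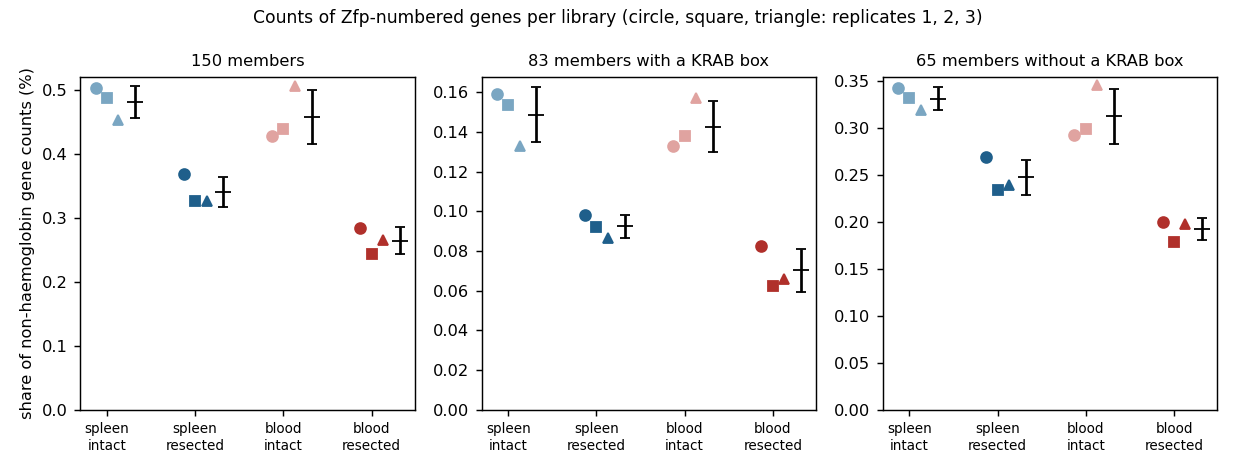
Share of the non-haemoglobin gene counts (%) held by the 150 members (left), by the 83 with a KRAB box (middle) and by the 65 without one (right), in each of the 12 libraries. Coloured symbols are libraries, and black marks are the mean with the SD of 3. The members' share goes from a mean of 0.482% to 0.341% in spleen and from 0.458% to 0.265% in blood, with no overlap between resected and intact libraries in any panel.

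In blood 128 of the 150 members (85.3%) had a negative log2 fold change after resection, against 54.8% of the 20135 features tested. Their median was -0.77, and that of all features -0.10 (-0.65 and 0 without intact library 3). In spleen 124 members (82.7%) had a negative value, against 46.4% of all features, and the medians were -0.57 and 0.05. The middle 50% of the members lay between -1.44 and -0.36 in blood and between -1.06 and -0.17 in spleen. These are descriptions of a list chosen by symbol, and no test was made over it.

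A gene was called when 2 conditions held: a p from edgeR's quasi-likelihood test, adjusted by Benjamini-Hochberg over all features, of less than 0.05, and a log2 fold change beyond 1 in either direction. In blood 45 members were called lower and 1 higher, 30.0% of the members for the lower calls against 6.11% of all features, and 7.80% of all features were called higher. In spleen 14 members (9.33%) were called lower against 0.596% of all features. None was called higher in spleen (0 members by edgeR, 6 at an unadjusted p under 0.05, 1 by DESeq2), against 0.780% of all features. The libraries of the 2 states did not overlap, with resection lower, for 90 members in blood and 89 in spleen, where 19.0% and 17.7% of all features did so.

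The spleen count depended on single libraries. It was 0 without intact library 1 or without intact library 2, 6 without intact library 3, and 2, 3 and 1 without resected libraries 1, 2 and 3. Leaving out blood libraries moved it too, to 29 without intact blood library 3, to 6 and 4 without intact blood libraries 1 and 2, and to 6 and 4 without resected blood libraries 1 and 2. DESeq2 called 36. Every spleen call named here was therefore lost in the 2 fits with no call, and of the 12 fits Zfp397 kept its call in 10, Zfp329 in 9, Zfp260 and Zfp87 in 7, Zfp12 in 2 and Zfp189 in 1. In blood the count was 36 without intact library 3 and 28 without resected library 2. The number of members with a negative value moved less, to between 125 and 130 in spleen and between 121 and 128 in blood over the 12 fits that each left out 1 library.

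**Figure D2:**
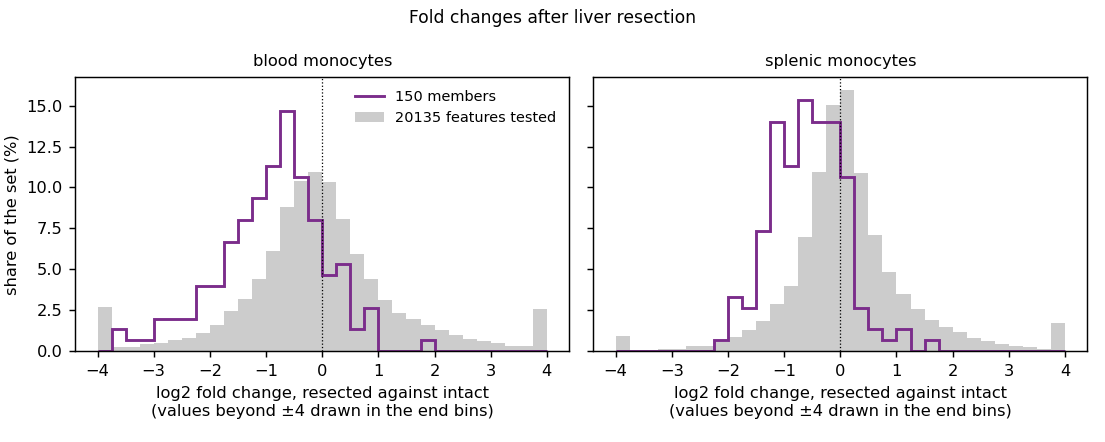
Share of the set (%) by log2 fold change after resection, in bins, for the 20135 features tested (grey bars) and the 150 members (line), in blood (left) and spleen (right). The members lie to the left of the features as a whole, with medians of -0.77 against -0.10 in blood and -0.57 against 0.05 in spleen.

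In 111 of the 150 members the fold change was negative in both tissues, in 9 it was positive in both, in 17 negative in blood only and in 13 negative in spleen only. Across the 150 genes the fold changes of the tissues, which share no library, correlated with Pearson's r of 0.54 and Spearman's rho of 0.55. Genes are not independent replicates, and this is a description. There were 8 members called lower in both tissues, 57.1% of the spleen list and 17.8% of the blood list. They were Zfp12, Zfp46, Zfp54, Zfp59, Zfp128, Zfp189, Zfp260 and Zfp329. Of the 12 fits that left out 1 library, Zfp46, Zfp59 and Zfp128 kept the spleen call in 2 and Zfp54 in 5. The blood call of Zfp46 was lost without intact library 3 or resected library 2.

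Zfp260, which codes for a protein of 12 fingers and little else and is known as a regulator in the heart, gave the largest fall in blood among these 8. It stood at 37.6, 36.0 and 55.9 CPM in intact blood and at 12.5, 8.09 and 9.12 CPM after resection. In spleen it went from 42.2, 41.1 and 28.8 CPM to 15.1, 13.99 and 13.7 CPM. Resected and intact libraries were well apart in both tissues. The log2 fold changes were -2.12 ± 0.24 (SE) in blood and -1.39 ± 0.23 in spleen, with adjusted p of 0.00079 and 0.025 (edgeR).

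Zfp12, a KRAB protein of 15 fingers, had the smallest p of all members in blood. Intact blood held 44.6, 42.9 and 58.2 CPM and resected blood 14.1, 14.1 and 10.7 CPM. In spleen 43.8, 42.4 and 37.2 CPM became 22.2, 22.5 and 14.9 CPM. The libraries did not overlap in either tissue, and the fall was -1.91 ± 0.20 (SE) in blood and -1.05 ± 0.20 in spleen on the log2 scale, adjusted p 0.00067 and 0.036 (edgeR).

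Zfp329, one of the genes given for this family at the outset, codes for a 12-finger protein in which no KRAB box was found. It fell from 27.4, 24.6 and 18.3 CPM to 8.08, 5.87 and 5.63 CPM in spleen, and from 11.7, 14.95 and 11.2 CPM to 4.49, 3.36 and 4.36 CPM in blood. Its log2 fold change was of like size in the tissues, -1.84 ± 0.24 (SE) in spleen and -1.63 ± 0.24 in blood, adjusted p 0.018 and 0.0021 (edgeR). Zfp397, the other gene given at the outset and a DNA-binding factor of 9 fingers, had the smallest p of the members in spleen. Intact spleen held 38.8, 33.6 and 31.4 CPM and resected spleen 15.8, 14.3 and 15.4 CPM, a change of -1.19 ± 0.13 (SE), adjusted p 0.014 (edgeR). In blood the libraries were also apart, 22.4, 27.1 and 24.97 CPM against 14.2, 12.8 and 14.7 CPM, and the change of -0.84 ± 0.13 passed the adjusted p (0.0031) but not the fold limit.

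The remaining members called in both tissues had fewer counts. CPM is not divided by transcript length here, so it orders genes by counts and not by number of transcripts. Zfp189 held 4.21, 5.94 and 4.59 CPM in intact blood and 1.34, 1.26 and 1.52 CPM after resection. In spleen it held 6.42, 6.45 and 5.43 CPM and then 2.66, 3.12 and 2.21 CPM. Intact and resected libraries were again apart in both tissues, by log2 fold changes of -1.84 and -1.19. Zfp128 (-1.71 in blood and -1.76 in spleen), Zfp54 (-1.44 and -1.91), Zfp59 (-1.52 and -1.24) and Zfp46 (-1.04 and -1.02) showed no overlap between states either. Zfp128 and Zfp54 reached at most 4.88 and 5.05 CPM in any library, so few counts stood behind their resected groups.

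**Figure D3:**
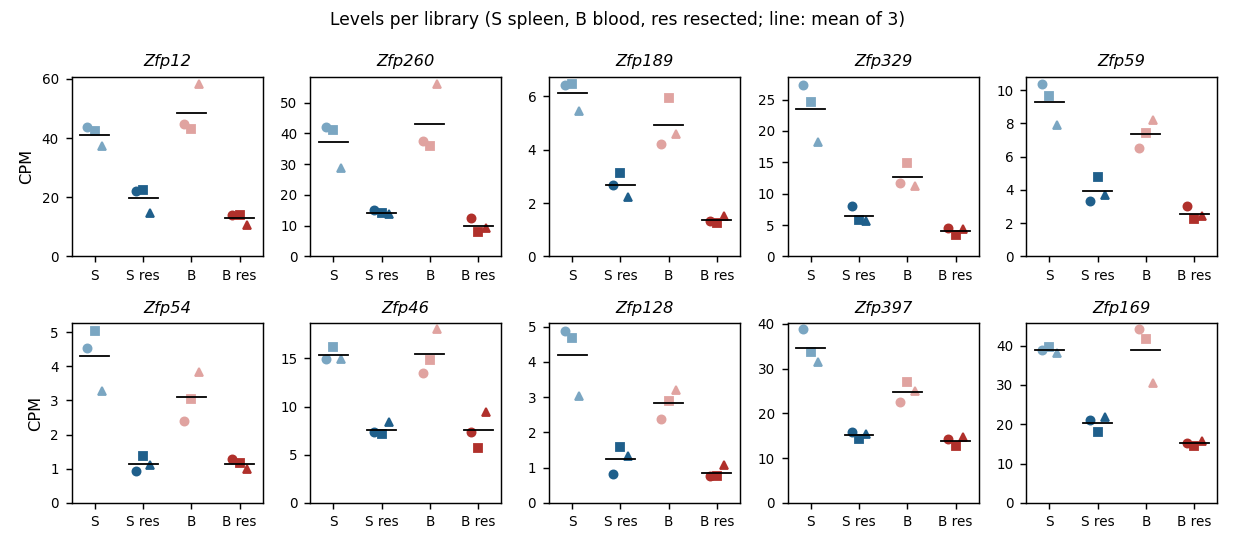
Levels (CPM, linear axes from 0) of the 8 members called lower after resection in both tissues, and of Zfp397 and Zfp169, in each library of spleen (S), resected spleen (S res), blood (B) and resected blood (B res). Lines are the means of 3 libraries, and in every panel resected libraries lie below intact ones of the same tissue, for Zfp260 at 8.09 to 15.1 CPM against 28.8 to 55.9 CPM.

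The 250 bases upstream of the transcription start are printed for 4 of these 8 genes. Of the 8, 3 carry a shared motif close to the start and are shown for it, and 5 do not (Zfp12, Zfp46, Zfp54, Zfp59 and Zfp329), of which Zfp329 is shown. They come from the RefSeq promoter table of GRCm38.p6, which is not the build the authors used. Zfp260 lies at chr7:30094826-30095075, plus strand, Zfp189 at chr4:49520926-49521175, plus strand, Zfp128 at chr7:12880928-12881177, plus strand, and Zfp329 at chr7:12818861-12819110, minus strand. Capitals mark the letters TACANNTCC on either strand, the core of a site described for Zfp143, itself a member and an activator of many small RNA and housekeeping promoters. The match lies on the reverse strand and begins 28, 21 and 15 bases upstream of the start.
Zfp260: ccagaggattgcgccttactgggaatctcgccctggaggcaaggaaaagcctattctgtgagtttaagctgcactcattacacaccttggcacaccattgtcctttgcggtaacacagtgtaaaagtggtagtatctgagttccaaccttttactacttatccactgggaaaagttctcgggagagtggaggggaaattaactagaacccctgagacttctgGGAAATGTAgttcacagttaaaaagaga
Zfp189: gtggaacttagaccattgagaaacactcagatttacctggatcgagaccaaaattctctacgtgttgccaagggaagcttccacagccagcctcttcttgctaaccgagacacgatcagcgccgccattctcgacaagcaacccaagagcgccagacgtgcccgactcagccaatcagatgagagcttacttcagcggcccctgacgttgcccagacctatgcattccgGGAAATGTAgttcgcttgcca
Zfp128: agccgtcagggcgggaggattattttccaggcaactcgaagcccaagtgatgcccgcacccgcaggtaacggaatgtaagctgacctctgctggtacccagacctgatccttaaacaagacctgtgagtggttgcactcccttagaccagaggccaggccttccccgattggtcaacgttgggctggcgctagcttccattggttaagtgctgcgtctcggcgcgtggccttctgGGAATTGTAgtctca
Zfp329: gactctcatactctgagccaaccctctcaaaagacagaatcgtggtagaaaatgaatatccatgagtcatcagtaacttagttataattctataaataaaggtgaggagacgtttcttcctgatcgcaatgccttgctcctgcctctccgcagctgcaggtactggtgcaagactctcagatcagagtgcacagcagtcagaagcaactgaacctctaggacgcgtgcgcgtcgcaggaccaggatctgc

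Among the 149 listed starts of 123 members, 35 (23.5%) held TACANNTCC in these 250 bases, against 793 of 15663 starts (5.06%) of all features tested and 3.86% of all 32851 starts of the table. The share was 32.1% of 84 starts of members with a KRAB box and 12.5% of 64 starts of members without. An earlier search with the letters ACTACAA, another rendering of that site, gave 9.40% for the members and 3.36% for the features tested, and the second form was taken after that result and the Zfp260 stretch had been seen. The forms share the letters TACA and their matches can overlap. Of 6 other motifs searched on both strands, CCGGAAG (ETS-type) was found in 21.5% of member starts and 11.7% of those tested, and GCGCATG (NRF1-type) in 8.05% and 5.03%. AAGATGG (YY1-type) was found in 4.70% and 4.30%, CACGTG (E-box) in 3.36% and 7.79%, TGACGTCA (CRE-type) in 5.37% and 2.30%, and TATAAA, a core promoter element, in 10.1% and 7.39%. The 34 members with TACANNTCC at any start had a median log2 fold change of -1.03 in blood and -0.86 in spleen, and the 89 without it -0.75 and -0.53. In blood 16 of the 34 and 24 of the 89 were called lower, against 6.11% of all features. Family history and KRAB content differ between these sets too, and a match is not a binding site.

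The 6 members called lower in spleen but not in blood were Zfp53, Zfp65, Zfp87, Zfp160, Zfp397 and Zfp459. Zfp87, a KRAB gene, stood at 16.98, 16.1 and 13.1 CPM in intact spleen and 6.002, 6.59 and 6.88 CPM after resection, a change of -1.25 ± 0.21 (SE, adjusted p 0.025, edgeR). In blood its values were 8.73, 10.7 and 10.9 CPM and then 7.69, 5.33 and 7.49 CPM, also without overlap, with a change of -0.56 that did not pass (adjusted p 0.076, edgeR). Zfp160 (-1.12 in spleen and -0.75 in blood) and Zfp53 (-1.32 and -0.72) also had the smaller value in blood, where Zfp160 passed the adjusted p (0.028, edgeR) below the fold limit and Zfp53 did not pass (0.087). Passing in 1 tissue only does not show that the tissues differ.

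In blood 37 further members were called lower without a call in spleen. Zfp169 stood at 44.2, 41.8 and 30.5 CPM in intact blood and at 15.1, 14.5 and 15.7 CPM after resection. It was also lower in each resected spleen library (39.0, 39.8 and 38.1 CPM against 21.2, 18.1 and 21.8 CPM). The changes were -1.36 ± 0.15 (SE) and -0.94 ± 0.15, with adjusted p of 0.00079 and 0.025 (edgeR), so that only the fold limit kept the spleen value from a call. Zfp60, another KRAB gene, fell from 9.77, 11.95 and 17.1 CPM to 1.89, 2.45 and 0.816 CPM, a log2 fold change of -2.92 ± 0.43 (SE, adjusted p 0.0022, edgeR). Zfp113 (-1.85), Zfp458 (-2.11), Zfp251 (-2.09) and Zfp398 (-1.14) also fell in blood, all of them without overlap between states, and in spleen their log2 fold changes were -0.97, -1.41, -1.13 and -0.65.

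Zfp9 was the member called higher. It stood at 0.468, 0.231 and 0.743 CPM in intact blood and at 1.59, 1.97 and 1.41 CPM after resection, a log2 fold change of 1.77 ± 0.47 (SE, adjusted p 0.025, edgeR). In spleen it went from 1.14, 1.06 and 1.53 CPM to 2.80, 1.62 and 3.25 CPM, higher in every resected library, but the change of 1.03 ± 0.46 did not pass (adjusted p 0.23, edgeR). These are low counts, and the blood call was lost without intact library 1 or 2 or resected library 2. Zfp263, a factor with a SCAN domain that is counted below among the members without a KRAB box, passed the adjusted p in blood without reaching the fold limit: 68.1, 65 and 58.0 CPM in intact blood and 89.4, 124 and 163 CPM after resection, a change of 0.98 ± 0.22 (SE, adjusted p 0.012, edgeR).

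Members were then divided by the protein. The longest reading frame of the GENCODE M21 transcripts was used for 148 of the 150 members, and Zfp267 and Zfp268 had no matched transcript. Fingers were counted by the usual spacing of cysteines and histidines. A KRAB box was taken as present when at least 11 of 16 conserved positions matched ahead of the first finger. That minimum was set by reading sequences after a stricter pattern had missed known boxes, and no member scored 11. The members with a box scored 12 or more and those without scored 10 or less. Of those without, Zfp213 scored 10, Zfp189, Zfp202 and Zfp446 scored 9 and Zfp286 scored 8, so the division is less certain for them. A lower score does not exclude a box either, because only the longest reading frame was read and it may lack the start of the protein. Zfp420, with 19 fingers in 578 residues, scored 2. Zfp213, Zfp189, Zfp446 and Zfp420 count below among the members without a box called lower in blood. The median was 11 fingers, with 12 in the 83 members with a box and 8 in the 65 without one. Zfp142 had 36 fingers, the most of any member, while 2 members, Zfp330 and Zfp365, had none of this spacing.

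KRAB genes lay further below 0 than the rest in both tissues. In blood 74 of the 83 KRAB members had a negative fold change and 34 were called lower, with a median of -1.01. Of the 65 without a box 53 were negative and 11 were called lower, with a median of -0.64. In spleen the medians were -0.83 and -0.25, the negative values 74 of 83 and 48 of 65, and the lower calls 10 and 4. Of all features, 54.8% were negative and 6.11% called lower in blood, and 46.4% and 0.596% in spleen. The summed share of the KRAB genes went from 0.149% ± 0.014 to 0.0924% ± 0.0059 (SD, n = 3) in spleen and from 0.143% ± 0.013 to 0.0703% ± 0.011 (SD, n = 3) in blood, ratios of 0.622 and 0.493. For the genes without a box the ratios were 0.748 and 0.615. Without intact blood library 3 the blood medians were -0.82 and -0.54, and 28 and 8 members were called lower.

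KRAB members also had fewer counts, with a median of 6.36 CPM over all libraries against 22.4 CPM without a box. Fold changes ran with counts: the 50 members with the fewest counts had medians of -1.34 in blood and -1.01 in spleen, and the 50 with the most -0.62 and -0.25. Mean counts were taken over all libraries, resected ones included, so a larger fall itself lowers a gene's rank. No like ranking of all features is given here, so the trend is not shown to be particular to the members. Among those with the fewest counts the KRAB genes had medians of -1.59 in blood and -1.10 in spleen (34 genes), and the others -1.16 and -0.35 (16 genes). Among those with the most counts the medians were -0.67 and -0.51 with a box (14 genes) and -0.60 and -0.18 without (36 genes). The KRAB median was the lower at each level of counts in both tissues. In blood the medians lay closer in the middle and highest groups than in the lowest. For the middle 50 they were -0.75 for 35 genes with a box and -0.64 for 13 without. Spearman's rho between finger number and fold change was -0.15 in blood and -0.39 in spleen over 148 genes, and between mean counts and fold change 0.33 and 0.32 over 150 genes. These are given as descriptions, since the genes share their libraries.

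**Figure D4:**
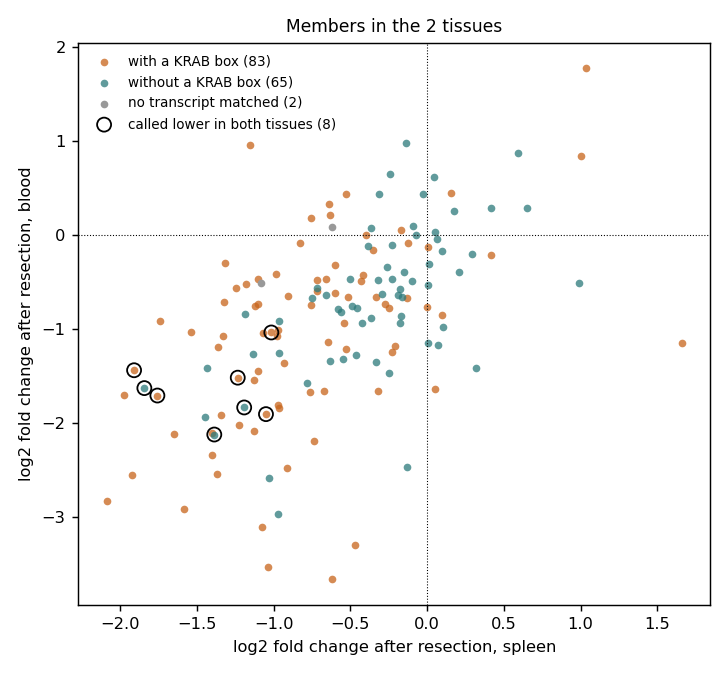
Log2 fold change after resection in blood (vertical) against spleen (horizontal) for each of the 150 members, coloured by the presence of a KRAB box. Open circles mark the 8 members called lower in both tissues, and 111 points lie at the lower left, where both values are negative.

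Place on the chromosome went along with the protein. Zfp genes sit in clusters, and 79 of the 149 members on the RefSeq map had another Zfp gene as the next protein-coding gene on at least 1 side. Of those 79, 61 had a KRAB box, and of the 70 others 22 did. The clustered members had a median log2 fold change of -1.03 in blood and -0.76 in spleen, with 32 and 11 called lower. The others had -0.60 and -0.24, with 13 and 3 called lower. Of all features, 6.11% were called lower in blood and 0.596% in spleen. Within the KRAB genes the medians were -1.04 and -0.97 when clustered and -0.74 and -0.68 when not. Near-identical neighbours can share reads, and how the authors' counting divided such reads is not given in the sources used here, so single clustered genes are less certain than their group.

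Among 19 DNA-binding members with a known target or partner the medians were -0.39 in blood and -0.15 in spleen, and among 7 RNA-binding and protein-modifying members -0.17 and 0.01. In blood 2 of these 26 were called lower, both of them DNA-binding (10.5% of the 19), against 6.11% of all features. In spleen 0 of the 26 were called by edgeR (3 at an unadjusted p under 0.05, 0 by DESeq2). Zfp292, a large factor of 14 fingers, stood at 79.1, 71.6 and 55.2 CPM in intact blood and 19.5, 11.8 and 37.5 CPM after resection, a change of -1.58 ± 0.41 (SE, adjusted p 0.022, edgeR). This call was lost without intact library 1 or 2 or resected library 1 or 2. Zfp219 was called lower in blood with 1 library far above the rest. Its intact values were 22.2, 18.4 and 63.2 CPM, the last in intact library 3, and its resected values 14.1, 12.3 and 12.5 CPM (-1.42 ± 0.41 SE, adjusted p 0.035, edgeR). Without that library the change was -0.66, under the fold limit, and was not called, and the call was kept in 6 of the 12 fits that left out 1 library.

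Zfp217, a partner of the CoREST and CtBP corepressors, stood at 99.0, 108 and 103 CPM in intact spleen, and after resection its values were 51.5, 54.5 and 52.8 CPM. In blood 53.8, 73.8 and 56.9 CPM became 26.8, 26.7 and 44.5 CPM. The states did not overlap, and the changes of -0.97 ± 0.20 (SE) and -0.91 ± 0.20 passed the adjusted p (0.044 and 0.012, edgeR) below the fold limit. Zfp148 (-0.86), Zfp335, which T cells need to mature (-0.47), Zfp143 (-0.57) and Zfp445, which protects imprints (-0.42), passed the adjusted p in blood in the same way (0.0036, 0.027, 0.033 and 0.047, edgeR). In spleen their changes were -0.17, -0.23, -0.18 and -0.42, and none of those passed. Zfp57, the other imprint keeper, held at most 1.70 CPM in any library, and its changes of 0.44 in blood and 0.15 in spleen did not pass. For Zfp281, Zfp384, Zfp131, Zfp110, Zfp341, Zfp407, Zfp410, Zfp366, Zfp318 and Zfp467 no change passed in either tissue.

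The 5 members with the most counts were Zfp106, Zfp207, Zfp91, Zfp318 and Zfp281, and after resection none of them was called in blood or spleen. Zfp106, an RNA-binding protein of motor neurons and muscle, averaged 238 CPM over all libraries. It stood at 239, 225 and 234 CPM in intact spleen and 215, 173 and 206 CPM after resection, and at 261, 278 and 275 CPM in intact blood and 242, 220 and 293 CPM after resection. Its changes were -0.23 ± 0.14 (SE) in spleen and -0.11 ± 0.14 in blood, both short of the threshold (adjusted p 0.38 and 0.62, edgeR). Zfp207, a partner of the spindle checkpoint protein Bub3, changed by 0.01 ± 0.24 in spleen and -0.31 ± 0.24 in blood. Zfp91, a ubiquitin ligase, changed by 0.10 ± 0.17 and -0.17 ± 0.17, and in blood its value was 0.04 without intact library 3.

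Other proteins of this role gave mixed values. Zfp346, which binds double-stranded RNA, stood at 23.0, 26.7 and 32.9 CPM in intact blood and 15.6, 14.6 and 12.9 CPM after resection (-0.94 ± 0.15 SE, adjusted p 0.0032, edgeR), and Zfp451, a SUMO ligase, changed by -0.88 ± 0.20 (adjusted p 0.014, edgeR). In spleen the changes were -0.18 and -0.37, neither of which passed. Zfp330, a nucleolar protein, stood at 39.5, 36.7 and 46.2 CPM in intact blood and 51.5, 49.6 and 48.8 CPM after resection, and in spleen at 34.6, 34.7 and 41.1 CPM and then 51.0, 45.4 and 50.5 CPM. Every resected library lay above the intact ones of its tissue, while the changes of 0.29 ± 0.12 (SE) and 0.41 ± 0.12 did not pass (adjusted p 0.12 and 0.10, edgeR). Zfp326, a splicing factor, gave 0.03 in blood and 0.05 in spleen, neither passing.

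Few members were called between intact blood and intact spleen. Others passed the adjusted p below the fold limit, among them Zfp213 (-0.98, adjusted p 0.041, edgeR) and Zfp212 (0.98, adjusted p 0.010, edgeR). In blood against spleen 5 members were called lower, 3.33% against 3.49% of all features, and 1 was called higher, against 3.86% of all features, with a median log2 fold change of -0.20. The share of lower calls lies near that of all features, and 1 of 150 is below the share of features called higher. The 1 higher call became 2 without intact spleen library 1 or 2 or intact blood library 3, and 3 without any other library. The 5 lower calls became 1 without intact spleen library 1 or 2 or intact blood library 1, and between 2 and 4 without any other library. T-cell markers stood far higher in blood in the same comparison, all 12 of the list called with a median of 3.05, and B-cell markers lower, with a median of -1.71. After resection 16 members were called lower in blood, 10.7% against 6.87%, and 4 higher against 6.28%, with a median of -0.35. The 16 became 8 without resected spleen library 1 or resected blood library 2, and 9 or 10 without resected spleen library 2, resected blood library 1 or resected blood library 3.

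Single members marked a tissue strongly. Zfp366, also called DC-SCRIPT and known from dendritic cells, stood at 7.64, 6.70 and 8.13 CPM in intact spleen and at 0.0826, 0.154 and 0.197 CPM in intact blood. After resection spleen held 6.70, 7.29 and 2.38 CPM and blood 0.0915, 0.136 and 0.0282 CPM. The difference of blood from spleen was -5.66 ± 0.64 (SE) in intact mice and -5.98 ± 0.66 after resection, adjusted p 0.0016 and 0.00069 (edgeR). Few counts stood behind the blood values, so the size of the difference is uncertain. In intact blood 3 counts were 0.0655 to 0.0826 CPM, and in resected blood 0.0844 to 0.102 CPM. The 8 conventional dendritic cell genes summed to between 373 and 558 CPM in intact spleen and between 143 and 740 CPM in intact blood, and 3 of them were called lower in blood and 1 higher, and their part in the result was not tested.

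Zfp318, which B cells need to express IgD, stood at 360, 298 and 259 CPM in intact spleen and at 93.9, 96.3 and 25.7 CPM in intact blood. After resection spleen held 242, 159 and 67.9 CPM and blood 32.3, 32.8 and 25.6 CPM. Blood lay below spleen by -2.09 ± 0.53 (SE) in intact mice and -2.37 ± 0.53 after resection, adjusted p 0.037 and 0.014 (edgeR), calls that were kept in 2 and 8 of the 12 fits that left out 1 library. The 12 B-cell genes summed to between 6029 and 6858 CPM in intact spleen and between 652 and 3012 CPM in intact blood, and their part in the result was not tested.

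Zfp281, a zinc finger repressor known from pluripotent cells, was the member higher in blood in both states. It stood at 192, 160 and 112 CPM in intact blood against 52.2, 59.8 and 42.6 CPM in intact spleen, and at 130, 152 and 170 CPM against 58.5, 33.8 and 69.4 CPM after resection. Blood and spleen did not overlap, and the differences were 1.59 ± 0.28 (SE) and 1.48 ± 0.28, adjusted p 0.010 and 0.0071 (edgeR). Zfp52 was lower in intact blood, 8.37, 10.6 and 4.41 CPM against 29.02, 26.2 and 23.7 CPM (-1.76 ± 0.34 SE, adjusted p 0.013, edgeR). Zfp229 (-1.34) and Zfp429 (-1.004) were the others called lower there, and with 1 library left out Zfp52 kept its call in 9 of 12 fits, Zfp229 in 2 and Zfp429 in 0.

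After resection Zfp143 was called lower in blood than in spleen, at 11.5, 12.1 and 13.1 CPM against 27.6, 28.9 and 26.7 CPM (-1.18 ± 0.16 SE, adjusted p 0.0018, edgeR). In intact mice its values were 16.6, 22.8 and 15.1 CPM in blood and 30.2, 29.6 and 34.4 CPM in spleen, a difference of -0.79 that passed the adjusted p (0.017, edgeR) but not the fold limit. Zfp213 (-1.68), Zfp184 (-4.11, with at most 0.183 CPM in resected blood), Zfp426 (-1.06), Zfp90 (-1.34), Zfp113 (-1.22), Zfp458 (-1.38) and Zfp316 (-1.65) were also lower in blood after resection. Zfp267 (1.38), Zfp268 (1.48) and Zfp53 (1.04) were higher there. With 1 library left out Zfp426 kept its call in 3 of 12 fits and Zfp316 in 7, Zfp458 and Zfp53 kept theirs in 8 and Zfp268 in 11, while Zfp143, Zfp213, Zfp184, Zfp90 and Zfp267 kept theirs in all 12. Zfp267 stood at 12.9, 9.27 and 12.6 CPM in resected blood and at 4.79, 4.59 and 3.93 CPM in resected spleen.

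**Figure D5:**
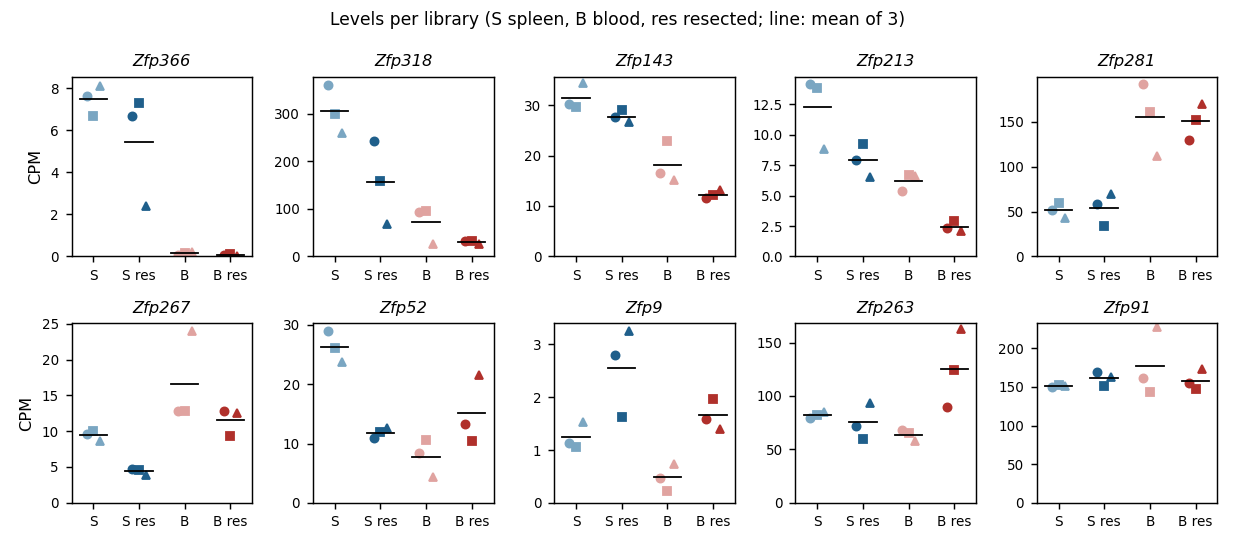
Levels (CPM, linear axes from 0) of 10 members in each library of spleen (S), resected spleen (S res), blood (B) and resected blood (B res), with the mean of 3 libraries as a line. Zfp366, Zfp318, Zfp143 and Zfp213 lie higher in spleen, Zfp281 and Zfp267 higher in blood, Zfp9 and Zfp263 lie higher in resected than in intact blood, and Zfp91 shows no called difference.

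Whether resection acted differently on the tissues was tested as an interaction over all 12 libraries. No member was called (0 of 150 by edgeR, 30 at an unadjusted p under 0.05, 6 by DESeq2), against 0.283% of all features. Of the 30 at an unadjusted p, 23 had the lower value in blood and 7 the higher. The smallest p belonged to Zfp52, which stood at 13.4, 10.4 and 21.5 CPM in resected blood and at 10.9, 11.96 and 12.6 CPM in resected spleen, so that it lay lower after resection in spleen (-1.15) and higher in blood (0.95). The difference was 2.11 ± 0.47 (SE, adjusted p 0.094, edgeR).

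Zfp genes with numbers above 500 also lay below 0 for the most part. Of 172 tested, 136 had a negative fold change in blood and 137 in spleen, with medians of -0.56 and -0.41. In blood 42 were called lower (24.4%, against 6.11% of all features) and 5 higher, and in spleen 18 lower (10.5%, against 0.596%). Without intact blood library 3 their blood median was -0.54, and 33 were called lower and 4 higher. The 41 Zbtb genes, zinc finger proteins with a BTB domain, had medians of -0.67 and -0.25, the 10 Zkscan genes -0.75 and -0.44, and the 11 Zscan genes -0.84 and -0.28. Of the other zinc finger genes, the 15 KLF genes tested had medians of -0.05 in blood and 0.65 in spleen, with 2 called higher in each tissue. The 5 Ikaros genes had medians of -0.77 and -0.55, with 4 of 5 negative in each tissue. By edgeR 0 of them were called in either tissue (in blood 4 at an unadjusted p under 0.05, and DESeq2 called 2 lower and 1 higher, and in spleen 0 by either). Of the CCCH family of Zfp36, which had 3 genes tested, Zfp36l2 gave -1.01 in blood and -0.78 in spleen (adjusted p 0.060 and 0.22, edgeR), Zfp36l1 gave 0.58 and -0.06, neither passing, and Zfp36 rose in blood by 1.82 ± 0.46 (SE, adjusted p 0.021, edgeR).

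A list of 21 genes was drawn up around the machinery through which KRAB boxes act, and a direct part in it is not claimed for each. In blood 8 of the 21 (38.1%) were called lower, against 6.11% of all features, with a median of -1.04. In spleen 0 were called by edgeR (3 at an unadjusted p under 0.05, 2 by DESeq2), with a median of -0.10. Trim28, the corepressor bound by the box, stood at 153, 168 and 422 CPM in intact blood and 133, 119 and 85.0 CPM after resection, a change of -1.14 ± 0.35 (SE, adjusted p 0.042, edgeR). Tasor, a subunit of the HUSH silencing complex, stood at 21.7, 24.9 and 16.4 CPM and then 12.1, 8.39 and 4.36 CPM (-1.34 ± 0.35 SE, adjusted p 0.025, edgeR). The other 6 called were Atf7ip, Cbx1, Cbx5, Chd3, Dnmt1 and Trim33. Without intact blood library 3, in which Trim28, Dnmt1 and Cbx5 were highest, 5 were called and the median was -0.57.

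Markers of other cells moved in the same comparisons. In blood all 12 T-cell genes had negative values, with a median of -2.50, and 10 were called lower (-1.76 and 9 without intact blood library 3), while all 12 neutrophil genes were called higher, with a median of 3.77 (3.46 and 9 called without that library). The 12 B-cell genes had a median of -0.57 and the 9 NK-cell genes tested -2.05, and -0.99 and -2.17 without that library. The median of the 8 proliferation genes was -1.01 with it and 0.99 without it. In spleen the medians were -1.45 for T cells, -2.41 for NK cells, -0.91 for B cells and 2.11 for neutrophils. The part of these shifts in the members' values was not tested.

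Of the members just inside the count minimum, Zfp334 had 10 counts in its library of rank 3 by count, Zfp457 had 12 and Zfp108 had 20. Zfp334 held 55 counts in intact blood library 3 and at most 12 in any other, and Zfp108 79 counts in that library and at most 22 elsewhere. Just outside stood Zfp462 with 5 counts and Zfp13 and Zfp37 with 4 each.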

How the data were processed

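RNA was measured by RNA-seq in 12 libraries of CD115+ monocytes, grouped by the sample labels. Values are estimated counts, which the authors deposited as 1 unscaled table for each library. The submitters' processing notes name STAR and GRCm39. The counting tool and its treatment of shared reads are not given in the sources used here. Symbol entries and RefSeq accessions matched to a symbol (25340 of 40274, GRCm38.p6 table, names only) were summed per gene and rounded. Unassigned entries, 1.75% to 4.33% of a library, were left out. The test was edgeR 4.0.16 under R 4.3.3 (filterByExpr, which kept 20135 features and all 150 members, TMM, robust glmQLFit, glmQLFTest) over 4 groups without covariates, with Benjamini-Hochberg adjustment over all features. The SE is the absolute log2 fold change over the square root of F. The code was tested on simulated data. Alternatives were DESeq2 1.42.0, RLE factors, other filters and limits, entries as deposited, a fit without haemoglobin, a replicate block, a fit of the 2 groups compared alone, and leaving out each library in turn. The 3 libraries of a group differed beyond sampling error (chi-square over degrees of freedom 21.3 to 618) and count as 3 replicates.

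The members, lists and rules were chosen with earlier results of these data known. Named are Zfp397, Zfp329, the role lists, the 5 members with the highest mean CPM, those at the count minimum, and up to 10 called members per direction and comparison with the smallest p and at least 50 normalized counts. Genes named beyond that were chosen after their values were seen.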

Additional observations from a re-analysis of the deposited data

How the results depend on the processing

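The medians after resection kept their sign under every alternative run and moved by at most 0.12 in blood and 0.08 in spleen. The largest moves came from leaving out 1 library. The SD between libraries of a group in the members' median log2(CPM + 0.1) was 0.19 and 0.16. Dropping 1 of 3 libraries can hardly move a median by more than such an SD, so this comparison does not show stability. Leaving out 1 library gave medians of -0.82 to -0.65 in blood and -0.65 to -0.52 in spleen. Counts of calls moved more, and the cause was not tested. Leaving out 1 library gave 28 to 47 lower and 0 to 2 higher calls in blood, 0 to 29 lower calls in spleen, 1 to 4 lower and 2 to 3 higher calls for intact blood against spleen, and 8 to 18 lower and 3 to 6 higher after resection. In blood the 45 lower calls became 71 without a fold limit and 23 with only the 2 groups compared, and the 1 higher call became 2 without a fold limit, with DESeq2 or with RLE factors and 0 with 10 counts required in every library or only 2 groups. In spleen the 14 lower calls became 37 at an unadjusted p, 36 with DESeq2, 4 without the low-count filter and 27 with 10 counts in every library, and the 0 higher calls became 3 at an unadjusted p and 1 with DESeq2. For intact blood against spleen the 5 lower calls became 10 without a fold limit, 9 at an unadjusted p, 2 without the filter or with only 2 groups and 3 with entries as deposited, and the 1 higher call became 2 at an unadjusted p or without the filter, 4 with DESeq2 and 3 in the other 4 cases (no fold limit, RLE, entries as deposited, haemoglobin left out). After resection the 16 lower calls became 25 at an unadjusted p. The interaction gave 14 calls at an unadjusted p and 6 with DESeq2. Counts at an unadjusted p in this section kept the log2 limit of 1, while those given earlier had no fold limit and are therefore larger. Without haemoglobin the median of all features for intact blood against spleen moved from -0.02 to 0.10, that of the members from -0.20 to -0.09, and the share of members with a negative value from 60% to 53.7%.

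The replicate numbers are not stated to pair the samples, and their deviations correlated by -0.046 to 0.189. With the replicate block 38 members were called lower in blood and 3 in spleen, and 127 members had a negative value in each tissue.

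Of the named values near 0, none of which was called, several changed sign. With entries as deposited the spleen values of Zfp326, Zfp346 and Zfp57 were -0.094, 0.046 and -0.15, and without the filter that of Zfp207 was -0.0022. Leaving out 1 library gave in spleen -0.088 to 0.052 for Zfp131, -0.16 to 0.13 for Zfp207, -0.32 to 0.0019 for Zfp263, -0.16 to 0.31 for Zfp281, -0.053 to 0.12 for Zfp326, -0.29 to 0.61 for Zfp57 and -0.13 to 0.25 for Zfp90. In blood it gave -0.40 to 0.0024 for Zfp207, -0.23 to 0.44 for Zfp268, -0.23 to 0.18 for Zfp281, -0.041 to 0.12 for Zfp326, -0.028 to 0.33 for Zfp341, -0.0077 to 0.20 for Zfp384, -0.55 to 0.11 for Zfp410, -0.11 to 0.55 for Zfp467 and -0.26 to 0.045 for Zfp91.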
